A study of Mus musculus with 12 samples.

Results

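Nhlh2 and Myt1 are early neuronal transcription factor genes that were both high in the youngest Ebf2-EGFP+ cells of the mouse cortex and then parted. By E15.5 Nhlh2 was still 12.2-fold higher in Ebf2-EGFP+ than in Ebf2-EGFP- cells, whereas Myt1 had fallen below its Ebf2-EGFP- level. Both genes were taken by name from the table of coding genes, together with their relatives Nhlh1, Myt1l and St18 and the zinc finger gene Insm1 where the table held them. All of these were listed, so that 6 of 4859 listed genes are described here. The table holds only genes that the authors had reported as differential between the populations in these same libraries, and counts of called genes are counts within that list.

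The libraries are bulk poly(A) RNA-seq of cells sorted by FACS from the embryonic cortex of mice carrying the Tg(Ebf2-EGFP)FB58Gsat transgene, in which regulatory sequence of Ebf2 drives EGFP. Both populations carry the transgene and were separated by EGFP fluorescence alone. The sorted Ebf2-EGFP+ cells (EGFP+) and Ebf2-EGFP- cells (EGFP-) of each stage, E11.5, E13.5 or E15.5, made up 6 groups with 2 libraries in each. Embryos of several litters were pooled for each experiment, so a library is a pool and not an animal. The EGFP+ gate follows the EGFP of the transgene, not Ebf2 RNA itself, and does not hold 1 cell type. The study describes it at the youngest stage as preplate neurons, subplate and Cajal-Retzius (CR) neurons together. At the oldest stage it describes mostly CR neurons. The EGFP- gate holds all other cells of the dissected tissue. Levels are given as FPKM, fragments scaled by transcript length and by mapped fragments, and can be compared between genes because they are taken per length.

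NHLH1 and NHLH2 (also called HEN1 and HEN2) are closely related basic helix-loop-helix (bHLH) proteins. Proteins of this class bind E-boxes, short DNA motifs read as CANNTG, usually as dimers with a ubiquitously expressed E protein, and both genes are switched on as progenitors leave the cell cycle and become neurons. NHLH2 is best known from the hypothalamus, where its loss in mice leads to obesity and impaired fertility. MYT1, MYT1L and ST18 (MYT3) form a family of CCHC zinc finger proteins that bind AAGTT motifs and recruit corepressors, with Notch pathway genes among their targets. MYT1L is the family member that stays on in mature neurons and is used to convert fibroblasts into neurons. INSM1 is a zinc finger repressor with a SNAG domain that is known for its role in the formation of basal, or intermediate, progenitors of the cortex.

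The sequence just before an annotated start site is shown for 4 of the genes. It is shown because bHLH factors and the MYT1 family read short motifs and because the relatives differ there. The 2 Nhlh genes each lie in a short locus, Nhlh2 at chr3:102010076-102015492 on the plus strand and Nhlh1 at chr1:172052292-172057573 on the minus strand (GENCODE M21, GRCm38). Myt1 lies at chr2:181763332-181827797, Myt1l at chr12:29528384-29923213, St18 at chr1:6487231-6860940 and Insm1 at chr2:146221921-146225020, all on the plus strand. Myt1l overlaps 2 genes of the opposite strand, Gm20208 and C630031E19Rik. The strand setting of the counting is not given in the sources used here. Reads from any exon bases that they share with Myt1l therefore cannot be told apart from its own. Only the overlap of whole genes was looked up, not that of exons. The promoter sequences are from RefSeq on GRCm38.p6 and run 5' to 3' on the strand of the gene, with CANNTG in capitals. They span chr3:102009895-102010075 for Nhlh2, chr1:172057597-172057846 for Nhlh1, chr2:181763082-181763331 for Myt1 and chr12:29528134-29528383 for Myt1l. The Nhlh2 stretch has 181 bases, ending before the earliest annotated start, and the others have 250. The Myt1l stretch precedes the GENCODE start but lies downstream of the RefSeq gene start at chr12:29527590. Its motifs are therefore inside the gene as RefSeq draws it.
Nhlh2: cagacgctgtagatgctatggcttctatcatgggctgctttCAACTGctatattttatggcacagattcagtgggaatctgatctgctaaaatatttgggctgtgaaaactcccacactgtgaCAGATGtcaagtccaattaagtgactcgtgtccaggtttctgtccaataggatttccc
Nhlh1: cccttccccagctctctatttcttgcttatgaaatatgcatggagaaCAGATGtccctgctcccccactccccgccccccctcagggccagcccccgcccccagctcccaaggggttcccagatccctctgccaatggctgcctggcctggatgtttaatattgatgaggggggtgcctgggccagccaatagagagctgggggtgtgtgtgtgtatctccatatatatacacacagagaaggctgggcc
Myt1: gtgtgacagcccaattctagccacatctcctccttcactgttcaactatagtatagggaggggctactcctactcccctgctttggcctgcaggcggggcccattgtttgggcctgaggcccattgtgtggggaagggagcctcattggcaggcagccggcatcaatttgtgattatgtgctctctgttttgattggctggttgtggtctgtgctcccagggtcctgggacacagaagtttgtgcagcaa
Myt1l: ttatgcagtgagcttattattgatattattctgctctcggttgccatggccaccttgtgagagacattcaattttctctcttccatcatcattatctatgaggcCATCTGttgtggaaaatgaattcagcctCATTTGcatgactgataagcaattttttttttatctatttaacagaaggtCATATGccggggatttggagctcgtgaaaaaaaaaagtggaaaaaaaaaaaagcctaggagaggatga

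Both Nhlh promoters held an E-box of the form CAGATG, at position -127 for Nhlh2 and at -203 for Nhlh1, counted from the RefSeq start site. Nhlh2 held a further E-box, CAACTG at -209, and both held 2 copies of CCAAT, at -115 and -84 for Nhlh2 and at -119 and -64 for Nhlh1. The Myt1 promoter held no CANNTG, 3 copies of CCAAT counting both strands, and an AAGTT at -15. The Myt1l promoter held 3 E-boxes, CATCTG at -146, CATTTG at -118 and CATATG at -68, of which the first is CAGATG on the other strand. In 250 bases before the start of 32851 promoters, searched on both strands, CANNTG was found in 66.2%, CAGATG (a subset of CANNTG) in 14.4%, CCAAT in 33.8% and AAGTT in 35.3%. These are matches of letters and were not tested against binding. The table held 3 start sites for Myt1 and 5 for Myt1l, of which only the one nearest the gene's start is shown. St18 and Insm1 were not matched.

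Within each group the 2 libraries correlated across listed genes at r from 0.981 to 0.992. All 8 CR neuron markers, Reln, Trp73, Calb2, Lhx1, Lhx5, Ebf2, Ebf3 and Tbr1, were higher in EGFP+ cells at every stage. Their summed level was 561 to 587 FPKM against 12.9 to 14.0 at the youngest stage, and 694 to 1198 against 61.6 to 78.5 at the oldest. Ebf2 itself, the gene behind the gate, averaged 55.2, 5.49 and 3.98 FPKM in EGFP+ cells and 1.06, 1.29 and 0.0837 in EGFP- cells at the successive stages. All 7 radial glia markers, all 5 cycling cell markers and all 7 interneuron or ganglionic eminence markers were lower in EGFP+ cells at every stage. Other lists were less uniform. Of 6 cortical plate markers, 3, 5 and 3 were higher in EGFP+ cells at the successive stages and 0, 0 and 1 lower. Of 4 listed subplate markers, 3, 2 and 1 were higher and 1, 2 and 2 lower. Of all listed genes 36.8%, 32.1% and 25.8% were higher and 44.9%, 43.5% and 31.6% lower. The 2 listed erythroid markers summed to 742 to 1598 FPKM in EGFP- cells at E11.5 against 18.7 to 55.5 in EGFP+ cells, and to at most 23.1 at later stages. The 3 listed endothelial markers summed to at most 7.19 FPKM in any library and the 1 listed microglia marker, Aif1, to at most 2.92. The 4 meninges or fibroblast markers summed to 57.6 to 69.3 FPKM in EGFP- and 25.2 to 27.6 in EGFP+ cells at E11.5 and to at most 3.61 later. In bulk samples such as these, fewer cells of a type and less RNA per cell cannot be told apart.

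**Figure D1:**
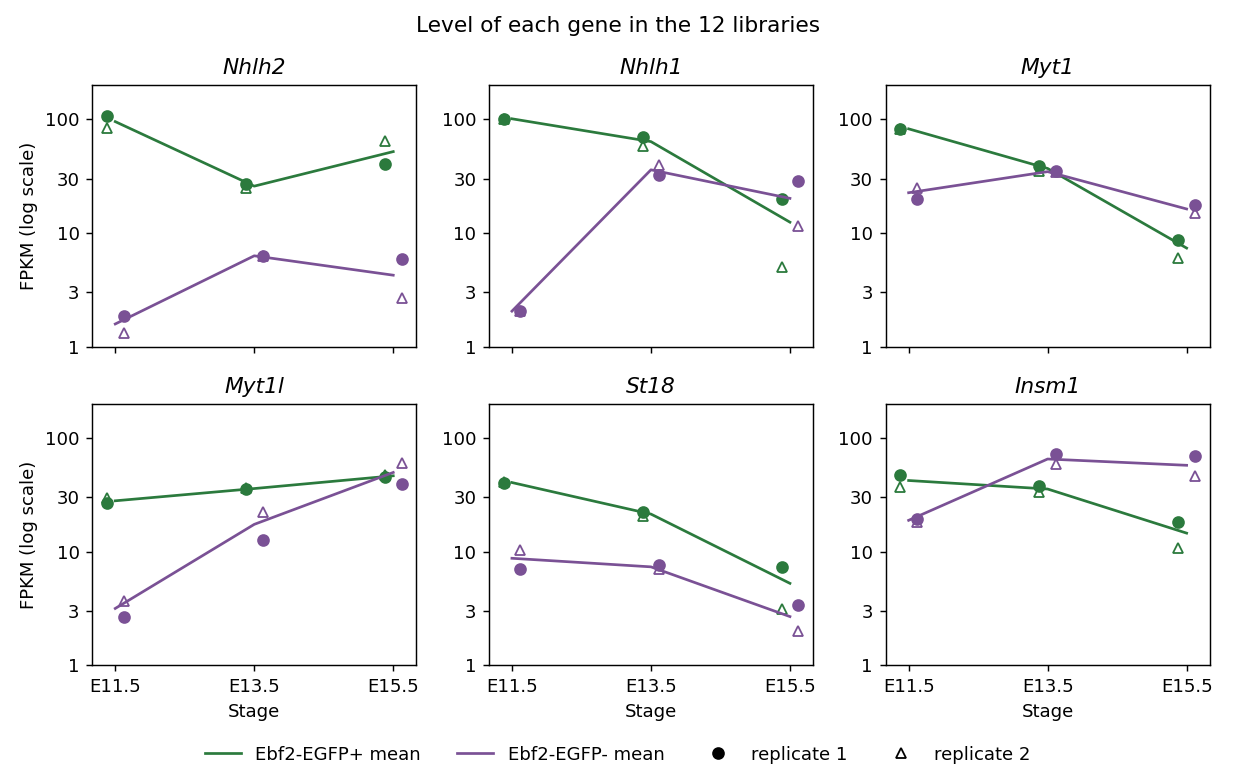
FPKM of the 6 genes in the 12 libraries on a log axis, by stage; green is EGFP+ and purple EGFP-, filled circles are replicate 1 and open triangles replicate 2, and lines join the means of 2 libraries. Nhlh2 is the gene whose populations stay far apart at all 3 stages, while the Myt1, Nhlh1, Myt1l and Insm1 lines meet or cross.

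Nhlh2 was the gene with the widest separation. At E11.5 it stood at 107 and 83.7 FPKM in the EGFP+ libraries and at 1.85 and 1.31 in the EGFP- libraries. The E13.5 libraries held 26.8 and 24.8 FPKM in EGFP+ and 6.28 and 6.29 in EGFP- cells. At E15.5 the EGFP+ libraries rose to 40.0 and 63.7 FPKM, and the EGFP- libraries held 5.84 and 2.65. Every EGFP+ library was thus above every EGFP- library, and the ratio of the means was 60.2, 4.10 and 12.2 at the successive stages. In the limma fit on log2(FPKM + 1) the difference was 5.22 (SE 0.28, Benjamini-Hochberg adjusted p = 7.76e-08), then 1.88 (SE 0.28, adjusted p = 0.000122), then 3.37 (SE 0.28, adjusted p = 3.88e-06). The order of the 6 groups from highest to lowest was EGFP+ at E11.5, E15.5 and E13.5, then EGFP- at E13.5, E15.5 and E11.5, and no neighbours overlapped.

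The narrowing at E13.5 came from both sides. Within EGFP+ cells Nhlh2 fell 3.69-fold from a mean of 95.2 ± 16.2 FPKM (SD, n = 2) to 25.8 ± 1.42, a log2 difference of -1.84 (SE 0.28, adjusted p = 0.000236). Among EGFP- cells it rose 3.98-fold, by 1.51 on the log2 scale (SE 0.28, adjusted p = 0.000897). From E13.5 to E15.5, a step that shares the E13.5 libraries with the one before it, Nhlh2 rose again in EGFP+ cells (2.01-fold, log2 difference 0.95, SE 0.28, adjusted p = 0.0191). This rise lost its call without E15.5 EGFP+ replicate 2 (0.62, adjusted p = 0.163) and without either E13.5 EGFP+ library (0.9997 without replicate 1 and 0.89 without replicate 2), and its adjusted p ranged from 0.00427 to 0.163 over all alternatives. In EGFP- cells the later change was -0.54 (SE 0.28, adjusted p = 0.110) and became a called fall of -0.998 without E15.5 EGFP- replicate 1. The summed CR markers also fell and then rose in EGFP+ cells. The sums were 561 to 587, 402 to 459 and 694 to 1198 FPKM at the successive stages. Unlike Nhlh2, the sum ended above its E11.5 level. Of the 8 markers, 6 were called lower and 1 higher in the first step. In the second step 6 were called higher and 1 lower. Mean Reln rose at both steps (76.08, 155.9 and 662.1 FPKM). Mean Tbr1 (267.9, 226.2 and 140.7) and Ebf2 (55.2, 5.49 and 3.98) fell at both. The part of the CR markers in the Nhlh2 result was not tested.

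Nhlh1, its closest relative, began at the same level and ended elsewhere. At E11.5 the EGFP+ libraries held 101 and 100 FPKM and the EGFP- libraries 2.04 and 2.06, a difference of 5.06 on the log2 scale (SE 0.48, adjusted p = 2.76e-06). By E13.5 the EGFP- libraries had reached 32.5 and 39.2 FPKM, a 17.5-fold rise (log2 difference 3.59, SE 0.48, adjusted p = 7.33e-05), beside 69.5 and 57.5 in the EGFP+ libraries. The EGFP+ libraries did not overlap those of EGFP- cells at E13.5, but the difference of 0.81 (SE 0.48) missed the threshold (adjusted p = 0.142). It was called with the replicate number as a block (adjusted p = 0.000632), with only the compared groups (adjusted p = 0.0065), with scaling (1.11, adjusted p = 0.0423) and without either E15.5 EGFP+ library, where its value stayed at 0.81. At E15.5 Nhlh1 was at 19.9 and 4.97 FPKM in EGFP+ and 28.6 and 11.6 in EGFP- cells. Those ranges overlapped, although replicate 2 was the lower library in both populations and Nhlh1 was lower in EGFP+ cells within each replicate number, by -0.51 and -1.08 on the log2 scale. The difference of -0.79 (SE 0.48) was not called in the unpaired fit (adjusted p = 0.171), was called with the block (adjusted p = 0.00103) and turned to 0.11 without E15.5 EGFP+ replicate 2. Without E15.5 EGFP+ replicate 1 or EGFP- replicate 2 it was called at -1.70 and -1.41. Within EGFP+ cells Nhlh1 fell 5.11-fold from E13.5 to E15.5 (log2 difference -2.53, SE 0.48, adjusted p = 0.00163), and this fall lay between -3.43 and -1.62 with 1 library left out, called each time. From highest to lowest the groups were EGFP+ at E11.5 and E13.5, EGFP- at E13.5 and E15.5, EGFP+ at E15.5 and EGFP- at E11.5, and only the E15.5 groups overlapped as neighbours.

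The ratio of Nhlh2 to Nhlh1 within a library shows the exchange of the 2 relatives. In EGFP+ cells it was 1.05 and 0.835 for the E11.5 libraries, 0.385 and 0.431 for those of E13.5 and 2.02 and 12.8 for those of E15.5. The 2 genes were thus near equal at first, Nhlh1 led at E13.5 and Nhlh2 led at E15.5, by an amount that differed strongly between the 2 libraries. EGFP- libraries had more Nhlh1 than Nhlh2 at every stage, with ratios of 0.908 and 0.636, then 0.193 and 0.161, then 0.204 and 0.228. The ratios are descriptions and were not tested.

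**Figure D2:**
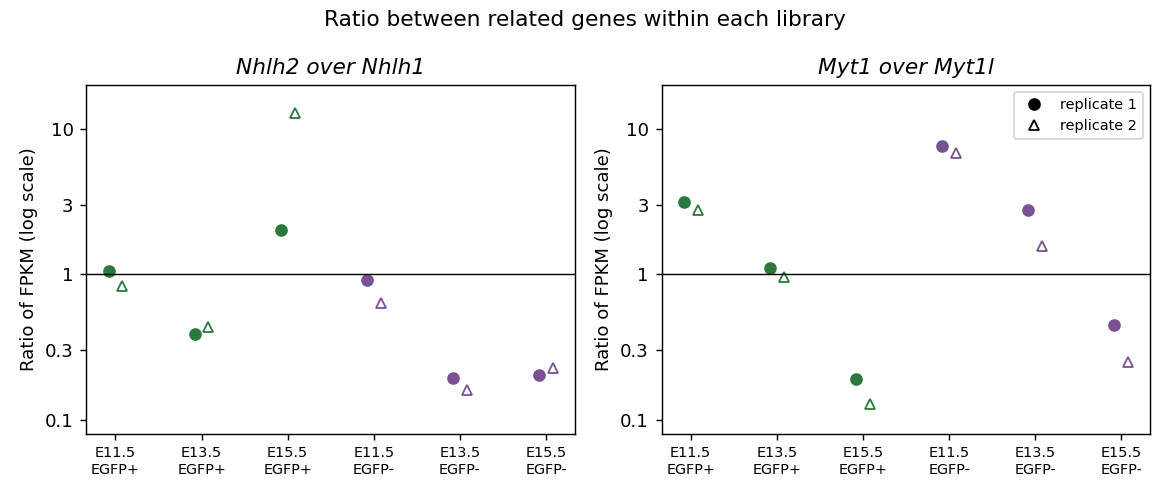
Ratio of FPKM between related genes within each library on a log axis, Nhlh2 over Nhlh1 on the left and Myt1 over Myt1l on the right, by stage and population; filled circles are replicate 1, open triangles replicate 2, and the line marks equal levels. Nhlh2 over Nhlh1 reaches 2.02 and 12.8 only in E15.5 EGFP+ cells among the 6 groups, and Myt1 over Myt1l falls stage by stage in both populations.

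Myt1 lost its enrichment in EGFP+ cells by E13.5 and was depleted from them at E15.5. At E11.5 it stood at 82.7 and 81.7 FPKM in the EGFP+ libraries and at 20.05 and 25.0 in the EGFP- libraries, a 3.65-fold difference of means (log2 difference 1.83, SE 0.17, adjusted p = 2.97e-06). The E13.5 values were 38.7 and 35.0 FPKM in EGFP+ and 34.9 and 34.2 in EGFP- cells. They differed by 0.09 (SE 0.17, adjusted p = 0.653), and by 0.39 (adjusted p = 0.0497) when the libraries were scaled to a common median of ratios. At E15.5 the order was turned, with 8.67 and 6.03 FPKM in EGFP+ against 17.5 and 14.96 in EGFP- cells (log2 difference -1.06, SE 0.17, adjusted p = 0.000376). This lower level was called under each of 18 alternatives, at values from -1.29 to -0.83.

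Over the 3 stages Myt1 fell 11.2-fold in EGFP+ cells. The first step was 2.23-fold (log2 difference -1.14, SE 0.17, adjusted p = 0.000229) and the second 5.01-fold (log2 difference -2.20, SE 0.17, adjusted p = 1.11e-05), measured against the same E13.5 libraries. In EGFP- cells Myt1 first rose 1.53-fold (0.60, SE 0.17, adjusted p = 0.0112) and then fell 2.13-fold (-1.05, SE 0.17, adjusted p = 0.000594). The early rise was not called without E11.5 EGFP- replicate 1 (0.45, adjusted p = 0.105), and its adjusted p was between 0.00236 and 0.105 over all alternatives. From highest to lowest the groups were EGFP+ at E11.5 and E13.5, EGFP- at E13.5, E11.5 and E15.5, and EGFP+ at E15.5, and no neighbours overlapped.

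Myt1l, the relative that persists in neurons, rose in EGFP- cells at both steps. The EGFP+ libraries went from 26.5 and 29.4 FPKM through 35.2 and 36.3 to 45.5 and 47.2, and neither step was called (0.35 and 0.36, SE 0.25), although the first was with only the compared groups in the fit (adjusted p = 0.0358). The EGFP- libraries climbed from 2.65 and 3.67 FPKM through 12.6 and 22.1 to 39.3 and 59.9. Both steps were called there, 2.10 (SE 0.25, adjusted p = 3.1e-05) and 1.48 (SE 0.25, adjusted p = 0.000619), a 15.7-fold rise of the mean in all. The population difference shrank accordingly from 2.81 (SE 0.25, adjusted p = 1.86e-06) to 1.06 (SE 0.25, adjusted p = 0.00245) and then to -0.07 (SE 0.25, adjusted p = 0.836). At E15.5 the libraries overlapped, and the sign turned to 0.14 with scaling and to 0.23 without E15.5 EGFP- replicate 2. The 6 cortical plate markers summed to 55.9 to 58.6, then 469 to 590, then 719 to 897 FPKM in EGFP- cells. In EGFP+ cells they summed to 188 to 245, then 943 to 952, then 674 to 1035 FPKM. The part of these markers in the rise of Myt1l was not tested. Myt1 was 3.12 and 2.78 times the level of Myt1l in the E11.5 EGFP+ libraries and 0.191 and 0.128 times at E15.5, and in EGFP- cells the ratio went from 7.57 and 6.83 to 0.446 and 0.250.

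St18, the third of the family, followed Myt1 downwards and kept a higher level in EGFP+ cells for longer. It held 40.2 and 40.7 FPKM in EGFP+ and 7.05 and 10.4 in EGFP- cells at E11.5 (log2 difference 2.11, SE 0.30, adjusted p = 4.55e-05). At E13.5 the values were 22.4 and 20.3 against 7.60 and 7.07 (1.42, SE 0.30, adjusted p = 0.00112). At E15.5 they were 7.38 and 3.13 against 3.38 and 1.98, which overlapped. The last difference was 0.70 (SE 0.30, adjusted p = 0.0606), called with the block (adjusted p = 0.00219), with scaling (0.88), with a pseudocount of 0.1 (0.87) and without either of 2 libraries, E15.5 EGFP+ replicate 2 (1.21) or EGFP- replicate 1 (0.98). In EGFP+ cells St18 fell 1.89-fold and then 4.06-fold. The first of these steps (-0.89, SE 0.30, adjusted p = 0.0228) was not called with scaling (-0.68) or without any 1 of the 4 EGFP+ libraries of E11.5 and E13.5, when it was between -0.96 and -0.83. The second (-1.93, SE 0.30, adjusted p = 0.000529) was called under every alternative. In the order of levels EGFP+ cells of E11.5 and E13.5 stood first and second, apart from the rest, and each of the remaining 4 groups overlapped its neighbour.

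Insm1 turned earliest. Its EGFP+ libraries held 47.6 and 36.7 FPKM at E11.5, then 37.6 and 33.4, then 18.3 and 10.8. The EGFP- libraries held 19.4 and 18.3, then 71.5 and 58.7, then 68.6 and 46.1. EGFP+ cells were therefore above EGFP- cells in the youngest stage (1.11, SE 0.25, adjusted p = 0.00123), below them at E13.5 (-0.85, SE 0.25, adjusted p = 0.00792) and further below at E15.5 (-1.93, SE 0.25, adjusted p = 6.4e-05), with no overlap at any stage. The E13.5 call was lost without E13.5 EGFP- replicate 1 (-0.71). The EGFP- rise of Insm1 by E13.5 was 3.46-fold (1.73, SE 0.25, adjusted p = 0.000118). The 4 intermediate progenitor markers (Eomes, Neurog2, Gadd45g and Btg2) summed to 220 to 232 FPKM in EGFP+ against 76.9 to 85.6 in EGFP- cells at E11.5. The sums were then 101 to 161 against 306 to 428, and 28.3 to 46.7 against 146 to 286. At E11.5 only Eomes was called higher (3.72, means of 140 against 9.87 FPKM), and the other 3 were not called. All 4 markers were called lower in EGFP+ cells at E13.5 and at E15.5. Their part in the Insm1 result was not tested. Among the 6 groups the highest 4, EGFP- of E13.5 and E15.5 and EGFP+ of E11.5 and E13.5, overlapped as neighbours, and the lowest 2 exchanged places after scaling.

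**Figure D3:**
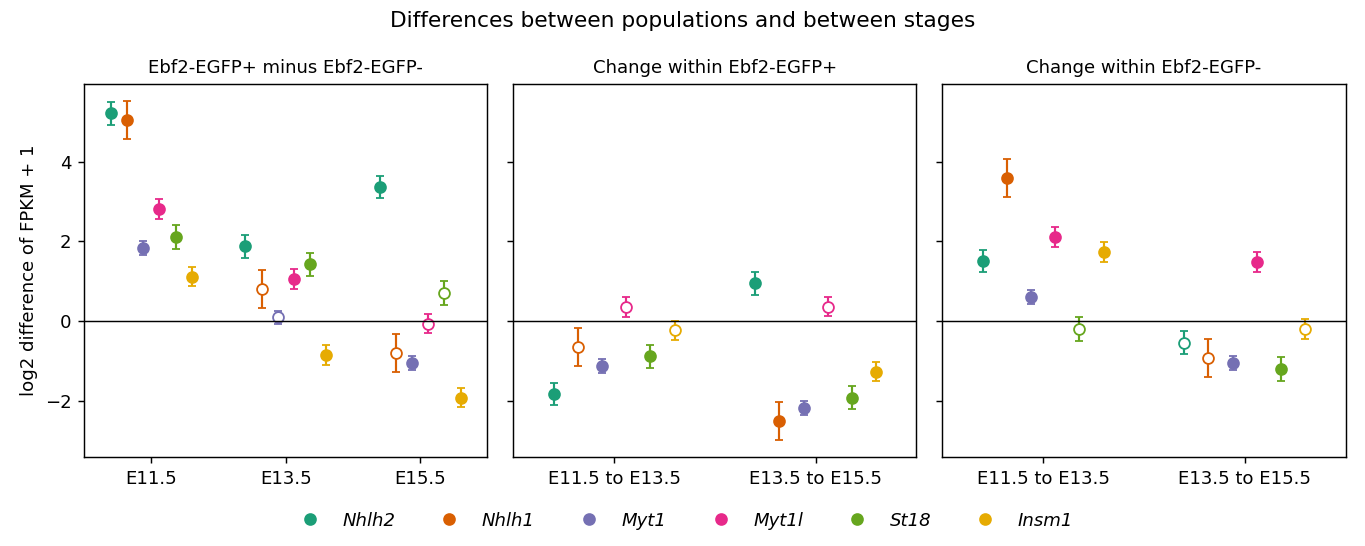
Log2 differences of FPKM + 1 for the 6 genes, between the populations at each stage (left) and between successive stages within EGFP+ (middle) and EGFP- cells (right); bars are standard errors of the limma fit, filled points were called at an adjusted p under 0.05 and open points were not. All 6 points lie above 0 at E11.5, and at E15.5 only Nhlh2 is called above 0, at 3.37, in this unpaired fit. With the replicate block St18 (0.70) was also called above 0 at E15.5.

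Counted over the genes, all 6 were called higher in EGFP+ cells at E11.5, where 36.8% of listed genes were called higher and 44.9% lower. At E13.5 Nhlh2, Myt1l and St18 were higher and Insm1 was lower, beside 32.1% and 43.5% of listed genes. At E15.5 Nhlh2 was higher and Myt1 and Insm1 were lower, beside 25.8% and 31.6%. These counts are from the unpaired fit. With the replicate block Nhlh1 was also called at E13.5 (0.81) and E15.5 (-0.79), and St18 at E15.5 (0.70). The median difference of all listed genes at the 3 stages was -0.19, -0.19 and -0.11, and scaling of the libraries raised it by 0.233, 0.264 and 0.180. For changes between stages within a population the shift was 0.0195 to 0.190.

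Within EGFP+ cells 3 genes, Nhlh2, Myt1 and St18, fell from E11.5 to E13.5, and none rose by the same test, beside 36.1% of listed genes that fell and 21.8% that rose. After scaling, 1343 listed genes rose and 1446 fell in this step, against 1057 and 1755 before. From E13.5 to E15.5 Nhlh1, Myt1, St18 and Insm1 fell and Nhlh2 rose, where 17.3% of listed genes fell and 24.6% rose. In EGFP- cells 5 genes, all but St18, rose from E11.5 to E13.5, beside 26.0% of listed genes that rose and 33.5% that fell. From E13.5 to E15.5 Myt1l rose there and Myt1 and St18 fell, beside 28.8% and 34.8%.

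The change of the population difference was also tested directly. From E11.5 to E13.5 it shrank or turned for 5 of the genes, all but St18, where 19.6% of listed genes had a called decrease and 15.6% a called increase of the EGFP+ minus EGFP- difference. From E13.5 to E15.5 it widened for Nhlh2 (1.49, SE 0.40, adjusted p = 0.0338) and moved the other way for Myt1 (-1.15, SE 0.25, adjusted p = 0.0158), beside 9.14% of listed genes with a called increase and 3.42% with a called decrease. These 2 calls depended on the spread taken from other groups: with only the compared groups in the fit their adjusted p was 0.0917 and 0.0589, within ranges over all alternatives of 0.00515 to 0.119 for Nhlh2 and 0.00143 to 0.0589 for Myt1. Nhlh2 also lost this call without any 1 of 7 libraries, the E11.5 and E13.5 EGFP+ libraries, E13.5 EGFP- replicate 1, E15.5 EGFP+ replicate 2 (1.16) and E15.5 EGFP- replicate 2 (1.04). Myt1 lost it without E13.5 EGFP+ replicate 1 (-1.08), E13.5 EGFP- replicate 1 (-1.16) or E15.5 EGFP+ replicate 2 (-0.92). With the replicate block 1775 in place of 610 listed genes were called in this comparison, and Nhlh1 (adjusted p = 0.00119), Myt1l (0.00742), St18 (0.0293) and Insm1 (0.0014) were called with a decrease. Without the block these 4 stood at -1.60, -1.12, -0.72 and -1.07 and were not called (adjusted p = 0.129, 0.0581, 0.248 and 0.0624), and some were called with 1 library left out: Nhlh1 (-2.50), St18 (-1.23) and Insm1 (-1.43) without E15.5 EGFP+ replicate 1, Insm1 without E15.5 EGFP- replicate 2 (-1.35) and also with scaling (-1.18, adjusted p = 0.0293), and Myt1l without E13.5 EGFP- replicate 2 (-1.50) or E15.5 EGFP- replicate 1 (-1.42). From E11.5 to E15.5 all 6 genes had a called decrease, from -5.85 for Nhlh1 to -1.41 for St18, beside 27.7% of listed genes with a decrease and 32.0% with an increase. That of St18 was not called without E11.5 EGFP- replicate 1 (-1.16).

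The early pan-neuronal genes, a list of 20 that includes Dcx, Tubb3 and Map2, narrowed like most of the 6. All 20 were higher in EGFP+ cells at E11.5. At E13.5 there were 15 higher and none lower, and by E15.5 there were 7 higher and 5 lower, at median differences of 2.22, 0.84 and 0.04. Plxna4, a semaphorin receptor, went from 3.58 to -1.59 between the first and last stage, and Elavl2, an RNA-binding protein of neurons, from 1.55 to -0.62. Gap43, a growth cone protein, stayed high as Nhlh2 did, at 2.22, 1.98 and 1.67. In EGFP- cells 18 of the 20 rose in the first step and 14 in the second, beside 26.0% and 28.8% of all listed genes. Several of these genes were named by the study from these libraries, and the list is not independent evidence of its direction.

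No gene in a list of other neuronal bHLH genes was called higher in EGFP+ cells at E15.5. Of the 8 listed of 10, 5 were higher and 1 lower in EGFP+ cells at E11.5, then 3 higher and 4 lower, then 0 higher and 5 lower, at medians of 2.70, -0.76 and -1.25. The shares of all listed genes were 36.8%, 32.1% and 25.8% higher and 44.9%, 43.5% and 31.6% lower. Neurod6, a marker of young pyramidal neurons, went from a difference of 5.28 at E11.5 to -0.15 at E15.5. Its mean at the successive stages was 83.0, 454 and 326 FPKM in EGFP+ and 1.16, 290 and 359 in EGFP- cells. In both populations it was higher at the last stage than at the first. Neurog2, the proneural factor of cortical progenitors, differed by 0.68 (adjusted p = 0.140) at E11.5 and by -2.83 (adjusted p = 0.000144) at E15.5. The Neurog2 mean was 34.8, 22.7 and 5.53 FPKM in EGFP+ cells at the successive stages. In EGFP- cells it was 21.5, 125 and 48.1, highest at E13.5. Against this list Nhlh2 stood at 5.22 and 3.37 in the first and last stage.

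Among the 11 dimer partners and inhibitors of bHLH proteins, 7 were lower and 1 higher in EGFP+ cells at E11.5, then 6 lower and 3 higher, then 6 lower and 1 higher, at medians of -0.86, -0.51 and -1.08. Lower shares over all listed genes were 44.9%, 43.5% and 31.6%, and higher shares 36.8%, 32.1% and 25.8%. Id3, an inhibitor that sequesters E proteins, was the most depleted at E11.5 (-3.03), and Id2 differed least (-0.01). The LIM-only genes divided: Lmo4 was the 1 gene higher at E11.5 (1.06), and Lmo3, at -0.86 at E11.5, was higher at E13.5 (1.11) and E15.5 (1.58). The 3 E protein genes Tcf3, Tcf4 and Tcf12 stood at -1.16, -1.08 and -1.73 at E15.5.

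Notch pathway genes, among which the MYT1 family has known targets, were divided at E11.5: of 17 genes, 8 were lower and 6 higher in EGFP+ cells, close to the 44.9% and 36.8% of all listed genes. The later stages had 14 lower and 1 higher, then 12 lower and 0 higher (43.5% and then 31.6% of all listed genes were lower), at medians of -0.43, -1.33 and -0.96. The Notch effectors Hes1 and Hes5 were lowest at E11.5, at -3.50 each, while Jag1, a ligand, differed by -0.32 (adjusted p = 0.127). The ligand Dll3 was higher at E11.5 (1.70), did not differ by the test at E13.5 (0.08, adjusted p = 0.761) and stood at -0.55 at E15.5 (adjusted p = 0.0559), a course close to that of Myt1. Hes1 and Hes5 also stand in the radial glia list, whose summed level was 406 to 430 FPKM in EGFP+ and 1328 to 1610 in EGFP- cells at E11.5, and the part of radial glia in these differences was not tested.

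**Figure D4:**
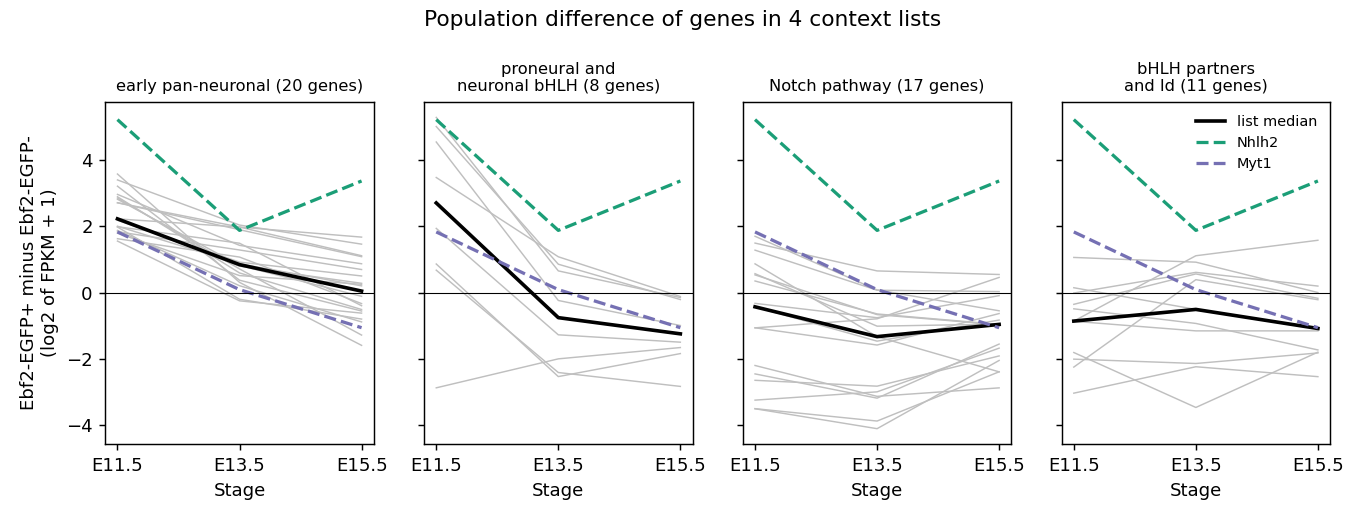
Population difference (EGFP+ minus EGFP-, log2 of FPKM + 1) at the 3 stages for the listed genes of 4 context lists; each grey line is a gene, the black line the list median, and the dashed lines repeat Nhlh2 (green) and Myt1 (violet). The medians of the pan-neuronal and bHLH lists fall with stage as Myt1 does, while Nhlh2 ends at 3.37.

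Few of the partners of these repressors were listed. Of 12 corepressor genes only the histone deacetylase gene Hdac1 and the CoREST gene Rcor2 were in the table. Hdac1 was lower in EGFP+ cells at each stage (-0.89, -1.27 and -1.24), and Rcor2 was higher at E11.5 (0.57, adjusted p = 0.0167), stood at -0.14 at E13.5 and was lower at E15.5 (-1.34). Of 5 other neuronal zinc finger repressors 4 were listed. At the successive stages 3, 2 and 1 of them were higher and 1 was lower each time, beside 36.8%, 32.1% and 25.8% of all listed genes higher and 44.9%, 43.5% and 31.6% lower. Scrt2 went from 2.85 through 0.29 (adjusted p = 0.320) to -1.31, whereas Insm2, the relative of Insm1, was higher in EGFP+ cells at each stage (1.71, 1.01 and 1.86) at means of at most 3.32 FPKM. Rest, the repressor of neuronal genes outside neurons, was lower at E11.5 (-1.67) and E13.5 (-1.36) and stood at -0.31 at E15.5.

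A list of 6 genes tied to NHLH2 in other tissues or contexts had 5 members in the table. At the successive stages 4, 4 and 3 of these were higher in EGFP+ cells and none was lower, at median differences of 1.44, 1.58 and 1.34. Of all listed genes 36.8%, 32.1% and 25.8% were higher and 44.9%, 43.5% and 31.6% lower. Pcsk2, a prohormone convertase gene, was higher at each stage (1.44, 2.39 and 1.83), as was Ndn, the gene of the growth suppressor necdin (1.67, 1.75 and 1.34). Cntn2, an axonal adhesion molecule, was the most enriched at E11.5 (4.65) and stood at -0.35 at E15.5. Mc4r, the melanocortin receptor gene, differed by -0.32 (adjusted p = 0.292) at E11.5 and was higher at the later stages (1.58 and 1.84), at mean levels of 2.92 and 6.09 FPKM in EGFP+ cells.

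The listed genes whose pattern over the 12 libraries was most like that of Nhlh2 were Tmem163, 4930428G15Rik, Rcan2, Kcnj5 and Eda2r, at Pearson r of 0.973, 0.962, 0.962, 0.961 and 0.958 on log2(FPKM + 1), among 4858 genes. Tmem163, a zinc transporter gene, averaged 58.8, 9.53 and 22.3 FPKM in EGFP+ cells and at most 2.48 in EGFP- cells. It thus shared the dip at E13.5. For Myt1 they were Dll3, Mllt4, Smarcd2, Dennd1b and Mtf2, at r of 0.974, 0.965, 0.959, 0.957 and 0.957. Dll3 averaged 41.1, 15.6 and 4.88 FPKM in EGFP+ and 11.98, 14.9 and 7.66 in EGFP- cells. Libraries of a group share stage and population, so these values describe likeness and were not tested. By Spearman's rho 1 of the 5 genes for Nhlh2 and 2 of the 5 for Myt1 stayed among the first 5, and after scaling 4 of 5 for each. Among the 6 genes themselves Myt1 and St18 were most alike (r = 0.832), Nhlh2 and Nhlh1 reached 0.620, Nhlh2 and Myt1 0.236, and Myt1 and Myt1l -0.165.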

How the data were processed

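Cells were sorted from pooled embryos, and polyadenylated RNA was sequenced as paired-end reads. The authors aligned reads to mm10 (GRCm38) with TopHat 2.0.8b, per the study's methods and processing notes, and computed the deposited FPKM of coding genes with Cufflinks 2.2.0. The deposited table also holds the authors' group means and their fold, p-value and q-value columns for 3 comparisons, which were not used, nor was the lncRNA table. The 6 genes and all lists were chosen with earlier results of these data known.

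FPKM were taken as log2(FPKM + 1) into limma 3.58.1 (R 4.3.3), in 1 fit of 12 libraries as 6 groups with a variance trend and no filter. Tests were two-sided, with Benjamini-Hochberg adjustment over 4859 genes in each of 10 comparisons and a call at an adjusted p under 0.05, and the script was first tested on simulated data. The depth of each library is unknown, since the study gives only an average number of reads over samples. The FPKM could not be turned back into fragments (at most 60.4% of genes under 0.15 FPKM fell on a common grid, at a tolerance of 1%). Precision therefore comes from the spread between the 2 libraries of a group. The fit pooled this spread over the 6 groups and drew it towards that of other genes at like levels. A standard error is thus not the spread of the compared libraries alone. Nothing says that a replicate is more than a separate pool, and p-values measure the spread between these pools.

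Both populations of a stage carry replicate numbers 1 and 2. Libraries with the same number deviated together from the means of their groups (r across genes 0.431, 0.534 and 0.431 at the 3 stages). The numbers were therefore taken to pair them in the replicate block, which was run as an alternative. The main fit was unpaired, and the calls that the block changed are given.

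Beside the 6 genes, those named were the 5 most like Nhlh2 and Myt1 and, per list, the genes with the largest and smallest difference at E11.5, plus others whose role the text needs. Lmo3, Lmo4 and Gap43 were named after their values were seen, and 1 gene of the lists is not reported here by name. The alternatives were a pseudocount of 0.1, median-of-ratios scaling, a mean FPKM of at least 1, no trend, only the compared groups, the replicate block and leaving out each library.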

Additional observations from a re-analysis of the deposited data

Results flagged for a closer look

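The difference between EGFP+ and EGFP- cells differed between stages for the 6 genes, by a test of the difference itself (limma interaction, adjusted p under 0.05). From E11.5 to E13.5 the EGFP+ minus EGFP- difference changed by -3.34 for Nhlh2 (adjusted p = 0.00013), -4.25 for Nhlh1 (0.000668), -1.74 for Myt1 (0.000338), -1.75 for Myt1l (0.00292) and -1.97 for Insm1 (0.00131), all on the log2 scale. From E13.5 to E15.5 it changed by 1.49 for Nhlh2 (0.0338) and -1.15 for Myt1 (0.0158), in opposite directions. From E11.5 to E15.5 it changed by -1.85 for Nhlh2 (0.00223), -5.85 for Nhlh1 (4.47e-05), -2.89 for Myt1 (7.09e-06), -2.87 for Myt1l (6.33e-05), -1.41 for St18 (0.0129) and -3.04 for Insm1 (4.22e-05). The 3 comparisons share libraries, and the last is the sum of the other two. With 2 libraries in a group no library could be judged as standing apart from its group.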

How the results depend on the processing

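Of 60 results of the 6 genes, 37 kept their direction and call under every alternative that could be run. Scaling of the libraries moved the Myt1 difference at E13.5 to a called 0.39, the Nhlh1 difference at E13.5 to a called 1.11, the Insm1 change of the population difference after E13.5 to a called -1.18 and the Myt1l difference at E15.5 to 0.14. With only the compared groups, the E13.5 to E15.5 changes of the population difference kept their values, 1.49 for Nhlh2 and -1.15 for Myt1, and were not called. With 1 library left out, those values ranged from 1.04 to 1.94 and from -1.38 to -0.92, the later change of Nhlh2 in EGFP+ cells from 0.62 to 1.27, its later change in EGFP- cells from -0.998 to -0.0911, and the early rise of Myt1 in EGFP- cells from 0.45 to 0.76. Signs turned, with 1 library left out, for Nhlh1 (-1.70 to 0.11) and Myt1l (-0.36 to 0.23) at E15.5, St18 in the early step of EGFP- cells (-0.452 to 0.0492) and Insm1 in their later step (-0.483 to 0.0807); none of these was called with all libraries. The cause was not tested.

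The replicate block kept the value of each population difference and called Nhlh1 at E13.5 (0.81) and E15.5 (-0.79), St18 at E15.5 (0.70) and in the change over the first step (-0.69, adjusted p = 0.0238), and 4 genes in the change from E13.5 to E15.5, as given above, where 1775 listed genes were called against 610. It changed no other call of the 6 genes. Changes between stages within a population cannot be estimated with it. With only the compared groups the first-step changes of Nhlh1 (-0.66) and Myt1l (0.35) in EGFP+ cells and of the St18 population difference (-0.69) were called. The count of 610 was 138 with only the compared groups and 125 to 1135 with 1 library left out. Listed genes called from E13.5 to E15.5 went from 2035 to 1247 for EGFP+ without E13.5 EGFP+ replicate 1 and from 3089 to 1962 for EGFP- without E13.5 EGFP- replicate 1. The depth of each library is unknown, and genes that the authors did not list were not analysed here.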

Other observations

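The 2 replicate numbers at E15.5 differed in the same direction in both populations for 5 of the 6 genes. Nhlh1, Myt1, St18 and Insm1 were lower in replicate 2 in EGFP+ and in EGFP- cells, and Myt1l was higher in both. Nhlh2 was higher in replicate 2 in EGFP+ cells (63.7 against 40.0 FPKM) and lower in EGFP- cells (2.65 against 5.84). Of all listed genes 38.9% were lower and 23.6% higher in replicate 2 in both populations at this stage. The intermediate progenitor markers summed to 46.7 FPKM in replicate 1 and 28.3 in replicate 2 of EGFP+ cells, and to 286 and 146 in EGFP- cells. CR markers moved the other way in EGFP+ cells, from 694 FPKM in replicate 1 to 1198 in replicate 2, and went from 78.5 to 61.6 in EGFP- cells. Cortical plate markers summed to 1035 and 674 FPKM in EGFP+ and to 897 and 719 in EGFP- cells. Radial glia markers summed to 149 and 86.3 FPKM in EGFP+ cells and to 794 and 439 in EGFP- cells.

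Ranked among the 4859 listed genes of a group, Nhlh2 stood at the 96.2 percentile of mean FPKM in E11.5 EGFP+ cells, the 81.0 at E13.5 and the 89.2 at E15.5. Myt1 stood at the 95.3, 86.6 and 54.8 percentiles in the same groups, and Insm1 at the 74.1, 93.6 and 91.5 percentiles in EGFP- cells.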
